A study of Mus musculus with 8 samples.

Results

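Sites gained with curcumin in both *GFI1-36N* and *GFI1-KD* bone marrow (BM) were examined here by ChIP-seq of H3K9ac, the acetylation of lysine 9 of histone H3 that marks active promoters and enhancers. They were selected on the deposited peak lists themselves. The peaks of 6 lists were merged wherever they overlapped, and a merged region was kept when it held a peak in the *GFI1-36N* curcumin and the *GFI1-KD* curcumin list and none in the 2 lists of the same genotypes without curcumin. This left 583 of 64462 merged regions (0.904%). "Gained" is used here for this pattern of listed peaks, and absence means that no peak was listed.

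All mice were C57BL/6 and carried the *NUP98-HOXD13* transgene, which models myelodysplastic syndrome and its progression to acute myeloid leukaemia (AML), and whole BM cells were used, per the labels, although a legend of the study speaks of c-kit+ cells. *GFI1-36S* mice carry the common human allele, *GFI1-36N* mice the variant with asparagine in place of serine at position 36, and *GFI1-KD* mice express GFI1 at a reduced level. One library per genotype came from a mouse given curcumin (20 mg/kg weekly, i.p.) and 1 from a mouse labelled as without curcumin, the control mice of the study having received DMSO. Since every group holds 1 library, no difference was checked in replicates, treatment and individual mouse cannot be told apart, and no p-value is given. By the names of the *GFI1-36N* lists, the mouse without curcumin was heterozygous and the one with curcumin homozygous; the labels do not give this, and zygosity and treatment cannot be told apart in this pair. Labels and list names contradict each other on which *GFI1-36S* mouse had curcumin. The labels were followed throughout. If the list names are right instead, every value given below for *GFI1-36S* with curcumin belongs to the mouse without it and the reverse. H3K9ac lists do not measure the level of GFI1, so the genotypes could not be checked from them.

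GFI1 silences genes in blood-forming progenitors. It binds DNA through zinc fingers and brings in enzymes that strip acetyl and methyl groups from histones, and where it is lacking the genes it controls are known to carry more acetylation. Curcumin is a natural inhibitor of histone acetyltransferases such as p300. H3K9ac sits mainly around the transcription start site (TSS) of active genes, and acetylated sites in introns and between genes are often enhancers, which are used in a more cell type-restricted way than promoters.

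The lists held between 20354 peaks (*GFI1-36S* curcumin) and 49213 peaks (*GFI1-36N* curcumin), and their weakest peak had a −log10 q between 1.31 and 1.46. As a check of the labelled tissue, promoter peaks were counted at lineage markers. In the 5 libraries other than *GFI1-36S* curcumin, 11 to 19 of 22 neutrophil, 22 to 37 of 38 erythroid and 11 to 15 of 26 T-cell promoters had a peak. The library labelled *GFI1-36S* curcumin stood apart, with a peak at 1 of 22 neutrophil, 7 of 38 erythroid and 25 of 26 T-cell promoters. It took no part in the choice of the gained sites but bears on every share that uses it. In *GFI1-36N* mice the stem and progenitor promoters with a peak numbered 19 of 24 without and 20 with curcumin, and the endothelial and stromal ones 8 and 9 of 23. In *GFI1-KD* mice the corresponding numbers were 19 and 21, and 8 and 5. The *GFI1-KD* pair stood further apart at mature lineages. Erythroid promoters with a peak numbered 37 of 38 in the mouse without and 22 in the mouse with curcumin, and neutrophil ones 19 and 11 of 22. For the *GFI1-36N* pair these counts were 31 against 28, and 16 against 16. The treated *GFI1-KD* list was also shorter, at 30784 peaks against 39272, and the part of list length was not tested. In whole marrow, a change in cell composition and a change per cell cannot be told apart.

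The sequence around the summit is shown for 6 of the strongest gained sites, all of them without a listed peak in any of the 3 libraries labelled as without curcumin, and ordered by the smaller one of their ranks in the 2 curcumin lists. They stand upstream of *Smoc1*, at a *Prdm16* start site, near *Ccng1* and *Fhad1*, inside *Ikzf2* and downstream of *Atxn7l3b*. With the *GFI1-36S* treatments as the list names have them, *Smoc1*, *Prdm16* and *Ikzf2* have a *GFI1-36S* peak without curcumin, and the other 3 have none in either list. Each run spans 299 bases of mm10 (GRCm38, plus strand) centred on the highest summit, and capitals mark matches to any of the 16 short motifs described further on, on either strand.
Smoc1 site, chr12:81018708-81019006: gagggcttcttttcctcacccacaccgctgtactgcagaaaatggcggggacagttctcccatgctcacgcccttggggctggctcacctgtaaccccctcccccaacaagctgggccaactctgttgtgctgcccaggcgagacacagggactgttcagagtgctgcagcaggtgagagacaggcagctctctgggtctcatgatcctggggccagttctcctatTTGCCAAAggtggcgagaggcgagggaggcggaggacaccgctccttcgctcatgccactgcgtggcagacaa
Prdm16 site, chr4:154334459-154334757: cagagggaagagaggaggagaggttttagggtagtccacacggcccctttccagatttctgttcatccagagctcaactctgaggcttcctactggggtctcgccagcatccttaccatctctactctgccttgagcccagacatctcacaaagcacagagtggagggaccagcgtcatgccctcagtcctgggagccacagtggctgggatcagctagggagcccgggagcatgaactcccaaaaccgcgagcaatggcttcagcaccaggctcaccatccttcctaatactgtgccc
Ccng1 site, chr11:40746420-40746718: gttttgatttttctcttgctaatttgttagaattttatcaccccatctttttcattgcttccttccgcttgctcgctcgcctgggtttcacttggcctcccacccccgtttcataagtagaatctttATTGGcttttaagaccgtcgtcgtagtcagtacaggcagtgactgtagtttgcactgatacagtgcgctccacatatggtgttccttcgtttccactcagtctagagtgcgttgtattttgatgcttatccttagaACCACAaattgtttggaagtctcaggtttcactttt
Fhad1 site, chr4:142021134-142021432: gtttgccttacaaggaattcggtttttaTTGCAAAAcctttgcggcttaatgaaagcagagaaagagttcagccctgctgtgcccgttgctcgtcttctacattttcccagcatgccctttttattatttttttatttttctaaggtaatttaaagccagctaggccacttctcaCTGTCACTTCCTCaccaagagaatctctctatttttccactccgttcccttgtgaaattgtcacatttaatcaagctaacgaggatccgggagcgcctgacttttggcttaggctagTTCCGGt
Ikzf2 site, chr1:69668041-69668339: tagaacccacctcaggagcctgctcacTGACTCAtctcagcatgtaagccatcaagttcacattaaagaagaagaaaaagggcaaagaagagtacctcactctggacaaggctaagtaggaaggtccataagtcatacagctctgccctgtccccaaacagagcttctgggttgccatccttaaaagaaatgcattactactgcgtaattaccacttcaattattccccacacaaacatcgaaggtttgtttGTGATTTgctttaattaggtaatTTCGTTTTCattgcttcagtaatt
Atxn7l3b site, chr10:112893751-112894049: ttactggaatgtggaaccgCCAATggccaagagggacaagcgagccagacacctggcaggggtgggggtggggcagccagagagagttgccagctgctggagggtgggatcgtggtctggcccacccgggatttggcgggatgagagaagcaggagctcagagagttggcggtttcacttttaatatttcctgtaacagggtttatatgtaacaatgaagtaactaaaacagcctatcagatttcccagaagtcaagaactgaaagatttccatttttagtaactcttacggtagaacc

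The *Smoc1* window held 1 match, to the C/EBP letters, and the *Prdm16* window held none. The strong sites at *Ccdc62* and *Ppp2r3d* also had no listed peak without curcumin but are not shown. The *Ppp2r3d* window held no match. The *Ikzf2* window held the letters for AP-1, GFI1 and IRF, and the *Fhad1* window those for ETS, PU.1, C/EBP and MEIS. The *Ikzf2* window is centred on the *GFI1-KD* summit, and no listed *GFI1-36N* curcumin peak overlaps it.

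The gained sites were a small part of what the 2 curcumin libraries shared. Of 22663 regions with a peak in both curcumin lists, 19775 also had one in both lists without curcumin, 1437 had one in *GFI1-36N* without curcumin alone, 868 in *GFI1-KD* without curcumin alone and 583 (2.57%) in neither. In *GFI1-36N* mice 15476 regions had a peak with curcumin only, 31.8% of those with a peak in either library, and the 583 sites made up 3.77% of them. In *GFI1-KD* mice 3666 regions had a peak with curcumin only, which is 9.22% of those with a peak in either library, and the 583 sites made up 15.9% of them. Of the other regions gained in *GFI1-KD* mice, 1437 had a peak in both *GFI1-36N* lists, 517 in the list without curcumin alone and 1129 in neither. Over all 64462 merged regions, those gained in *GFI1-36N* alone made up 23.1% and those gained in *GFI1-KD* alone 4.78%. The latter 2 shares leave out the 583 sites and have the merged peaks of all lists as their base. Set beside the 15.9% and the 3.77%, they are no measure of how far the gains of the 2 genotypes overlap. These numbers follow from the lists that chose the sites and are given as a description.

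How close the sites lie to the boundary of the selection was described next. A total of 2305 regions missed it through a peak in 1 list without curcumin, and in 555 of them this peak had a −log10 q below 5. Just outside stood a region near *Mtmr3*, with a fold enrichment of 4.50 and 4.43 in the *GFI1-36N* and *GFI1-KD* curcumin lists and a peak of 2.13 (−log10 q 1.34) without curcumin. Just inside stood a region near *Ptprs*, whose *GFI1-KD* curcumin peak had a fold enrichment of 2.66 and a −log10 q of 1.61, and one near *Cbll1* with 2.24 and 1.62. A no-curcumin peak was listed within 1 kb of 204 sites, at 1 to 10 kb of 208 and at 10 kb or more of 171, with a median gap of 2982 bp. Most gained sites therefore lie within 10 kb of a listed no-curcumin peak of these genotypes. The same share was not computed for other regions, so it is not known to be particular to the gained sites.

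Most of the sites were weak against the whole lists. In the *GFI1-36N* curcumin library their fold enrichment over the local background had a median of 3.63 and ran from 2.18 to 18.7, against a median of 4.33 over the whole list. In the *GFI1-KD* curcumin library the median was 3.66, from 2.24 to 20.7, against 5.81 over the list. Ranked by fold enrichment from 0 to 100 within each list, the sites had a median rank of 34.3 in *GFI1-36N* and 18.1 in the *GFI1-KD* library, and 22 sites reached a rank of 50 in both. Sets chosen in a like way were as weak, with a median fold enrichment of 3.46 (rank 28.5) for regions gained in *GFI1-36N* alone, 3.82 (rank 21.1) for those gained in *GFI1-KD* alone, and 3.31 and 3.59 in the *GFI1-36N* and *GFI1-KD* lists without curcumin for those lost in both. A −log10 q below 5 was found for 39.3% of their *GFI1-36N* and 40.1% of their *GFI1-KD* peaks, against 30.7% and 15.8% of all peaks in these lists. In MACS2 the fragments piled up at a summit set the fold enrichment as well as p, and whole numbers of fragments could be recovered within 0.003 on the −log10 p scale. The median gained site rested on 21 fragments in *GFI1-36N* (14 to 68) and 22 in the *GFI1-KD* library (15 to 69), over a median local background of 4.78 and 4.95 fragments. These ranges cover 579 and 581 of the 583 sites.

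The strength of the sites was only weakly related between the curcumin libraries. Across the 583 sites the ranks had a Spearman rho of 0.165, against 0.896 across the 22080 regions in both curcumin lists that also had a peak without curcumin. Regions are not independent replicates, and the gained sites cover a narrow range of weak values, so both are descriptions.

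**Figure D1:**
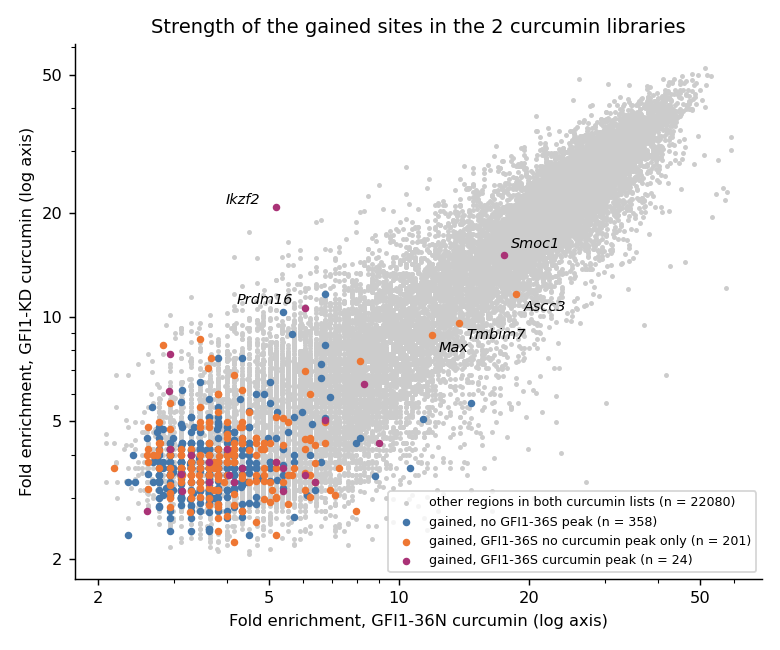
Fold enrichment in the *GFI1-36N* (x) and *GFI1-KD* (y) curcumin lists, both on log axes; each point is 1 merged region. The gained sites (coloured by their *GFI1-36S* peaks, treatments as labelled) lie mostly in the lower left, around the medians of 3.63 and 3.66, with *Smoc1*, *Ascc3*, *Tmbim7*, *Max*, *Prdm16* and *Ikzf2* standing away from them; the grid of points reflects whole numbers of fragments.

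The number of sites depended on the thresholds behind the lists. When each list was limited to its 20354 strongest peaks, 335 regions met the same rule, of which only 39 were among the 583. With peaks of −log10 q of at least 5, 537 regions met it and 221 were among the 583. Merging the 4 *GFI1-36N* and *GFI1-KD* lists alone, without the *GFI1-36S* libraries, gave 584 regions and kept 580 of the 583 sites. A set of 30 sites met the rule under these settings, with peaks up to 500 bp apart merged, with the 4 lists alone merged, and with no no-curcumin peak within 1 kb. These 30 included 11 of the 12 strongest sites, all but the one in *Fam114a1*.

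Of the 12 strongest sites, 4 also had a peak in *GFI1-36S* without curcumin, 3 had one only in the library labelled *GFI1-36S* curcumin and 5 had none in *GFI1-36S*. The strongest lay 7951 bp upstream of *Smoc1*, which encodes a secreted calcium-binding matrix protein. The region spanned 2200 bp (chr12:81017967-81020166), with a fold enrichment of 17.5 in *GFI1-36N* and 15.1 in *GFI1-KD* curcumin mice. The *GFI1-36S* library labelled curcumin had a peak there of 10.2, and the one without curcumin had none. A second site covered the *Smoc1* TSS (chr12:81026715-81027796), with 6.58 in *GFI1-36N*, 6.64 for *GFI1-KD* and no peak in either *GFI1-36S* list. The nearest *GFI1-36N* or *GFI1-KD* peak without curcumin was 70710 bp from the first site and 79458 bp from the second, so that neither genotype had a listed peak without curcumin anywhere near the gene's start.

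*Prdm16* encodes a zinc finger transcription factor needed to maintain haematopoietic stem cells, and it is a known leukaemia gene. A site of 1389 bp (chr4:154334039-154335427) covered an annotated start site near the 3′ end of the gene, which runs from 154316125 to 154636873 on the minus strand, and not its most upstream start. Its fold enrichment was 6.06 in *GFI1-36N* and 10.6 in *GFI1-KD* curcumin mice. The library labelled *GFI1-36S* curcumin had a peak of 4.81, and none of the 3 libraries labelled as without curcumin had one within the region. With the *GFI1-36S* treatments exchanged, the peak of 4.81 belongs to the library without curcumin. The nearest *GFI1-36N* or *GFI1-KD* no-curcumin peak stood 172171 bp away. The start site of *B230104I21Rik* lies within 1 kb of the same region.

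*Ikzf2* encodes Helios, an Ikaros family transcription factor of lymphoid and stem cells. Here the libraries differed in the shape of the signal. In *GFI1-KD* curcumin mice 1 peak of 11517 bp (chr1:69662673-69674189, intronic) reached a fold enrichment of 20.7, the highest of any gained site. In *GFI1-36N* curcumin mice 3 short peaks of 183 to 398 bp were listed in the same interval, with fold enrichments of 5.19, 3.29 and 4.33. In the library labelled *GFI1-36S* curcumin 2 peaks were listed, of 2.85 and 3.74, and in the one without curcumin none.

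A site of 9844 bp in *Ascc3* (chr10:50602869-50612712), a DNA helicase gene, covered an annotated start site inside the gene. It was a single peak with a fold enrichment of 18.7 in *GFI1-36N* and 7 peaks of up to 11.6 in *GFI1-KD* curcumin mice. The *GFI1-36S* library without curcumin had 5 peaks there of up to 14.6, and the one labelled curcumin had none. A promoter of *Ascc3* at another start site had a peak in all 6 libraries. Similar in their *GFI1-36S* pattern were the site in an intron shared by *Gatad1* and *Tmbim7*, with 13.8 in *GFI1-36N*, 9.60 for *GFI1-KD* and 9.55 in *GFI1-36S* without curcumin, and one 90567 bp upstream of *Max*, the obligate partner of MYC. The *Max* site had 11.9, 8.84 and 5.23 in the same order. The site in an intron of *Fam114a1* had 8.13, 7.47 and 5.90, and a no-curcumin peak of *GFI1-36N* or *GFI1-KD* mice stood only 116 bp away.

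At 5 of the 12 strongest sites neither *GFI1-36S* list had a peak. They stood in an exon of *Ccdc62* (6.75 in *GFI1-36N* and 11.6 in the *GFI1-KD* library), 7369 bp downstream of the *Ccng1* TSS (5.66 and 8.95), 6201 bp upstream of *Fhad1* (6.72 and 8.29), at a *Ppp2r3d* start site (5.37 and 10.3) and 35095 bp downstream of the *Atxn7l3b* TSS (6.60 and 7.30). *Ccng1* encodes cyclin G1, a target of p53, and *Ppp2r3d* a regulatory subunit of protein phosphatase 2A. The lists are not normalized to each other, so a difference between libraries within a site is not a measure of acetylation.

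The location of the sites was not used to choose them. A site was called promoter when it came within 1 kb of a TSS of a protein-coding gene, and this was so for 82 of 583 (14.1%, Wilson 95% interval 11.5% to 17.1%, counting error only). The share was 27.0% over all merged regions and 52.6% over the regions in both curcumin lists that also had a peak without curcumin. In the mirror set of 1391 regions lost with curcumin in both genotypes, which is the comparison of like kind, it was 16.1% (14.3% to 18.1%), within the interval of the gained sites. Of the other sites, 225 were intronic (38.6%), 203 intergenic (34.8%), 44 in noncoding genes (7.55%) and 29 exonic (4.97%).

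The gained and the lost sites differed in the split between introns and intergenic sequence. Intergenic regions made up 34.8% (31.1% to 38.8%) of the gained sites, 20.0% (18% to 22.2%) of the regions lost in both genotypes and 23.5% of all regions. Introns made up 38.6% (34.7% to 42.6%) of the gained and 55.1% (52.5% to 57.7%) of the lost sites. Regions gained in *GFI1-KD* mice alone had an intergenic share of 36.0% (34.3% to 37.7%), close to that of the 583, whereas those gained in *GFI1-36N* mice alone had 29.1% (28.4% to 29.8%).

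**Figure D2:**
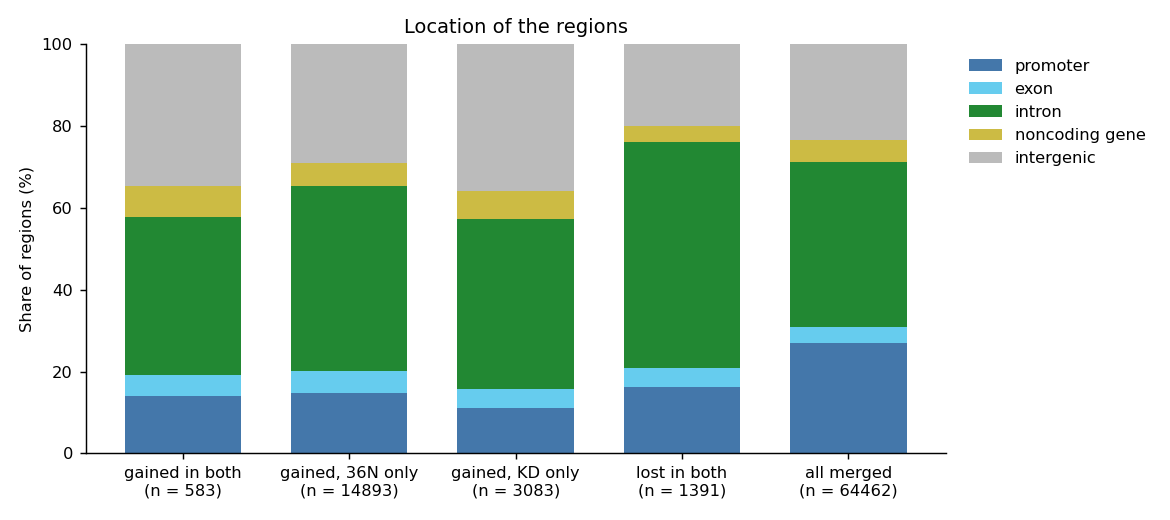
Stacked bars give the share of regions (y, %) by location for the 583 gained sites, regions gained in *GFI1-36N* or *GFI1-KD* mice alone, regions lost in both and all merged regions. The intergenic part is 34.8% of the gained sites, against 20.0% of the lost and 23.5% of all regions, and the promoter part is 14.1%, 16.1% and 27.0%.

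Distance to the nearest protein-coding TSS gave the same picture. From the highest summit it had a median of 12949 bp for the gained sites, 6395 bp for the regions lost in both genotypes and 6104 bp for all regions. Regions gained in *GFI1-KD* alone had a median of 13159 bp, close to that of the 583 sites, and those gained in *GFI1-36N* alone 8646 bp. More than 100 kb separated 57 gained sites (9.78%) from any such TSS, against 10.8% of those gained in *GFI1-KD* alone, 6.98% of those gained in *GFI1-36N* alone, 3.88% of the lost and 5.15% of all regions. When sites at promoters were set aside, the medians were 17135 bp for 501 gained sites and 11774 bp for all regions. With start sites of genes of all biotypes counted, the median distance of the gained sites was 6975 bp and their promoter share 19.7%.

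**Figure D3:**
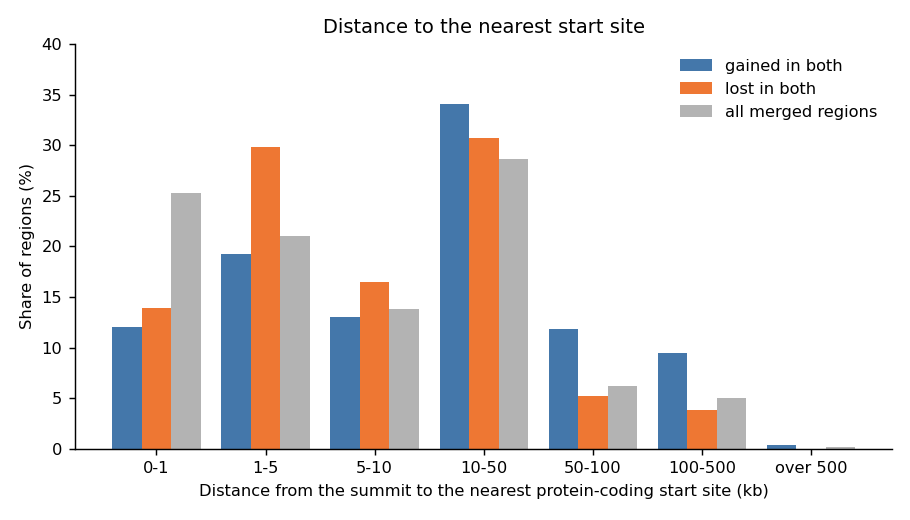
Share of regions (y, %) by distance between the summit and the nearest protein-coding TSS (x, kb), for the 583 sites gained in both genotypes, the 1391 lost in both and all merged regions. Of these 3 sets the gained sites have the highest share in each range from 10 kb to 500 kb and 12% lie within 1 kb, against 25.3% of all regions.

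The 82 promoter sites touched 82 genes. Of these, 54 had a promoter peak elsewhere at the gene in a *GFI1-36N* or *GFI1-KD* library without curcumin, and 28 had none. The region covered a TSS itself at 30 sites. Besides *Smoc1* and *Prdm16*, start sites without any such no-curcumin peak included those of *Ccl27a*, a skin chemokine gene with 2 gained sites (5.02 and 6.47 in *GFI1-36N* and *GFI1-KD* mice for the stronger, 3.98 and 4.65 for the other), *Pcdhgc3*, a protocadherin gene (6.75 and 5.03), *Cox4i2*, a subunit isoform of cytochrome c oxidase (4.33 and 4.82), and *Rab40b*, a small GTPase gene (3.81 and 5.97). *Cox4i2* and *Rab40b* had a peak in *GFI1-36S* without curcumin (3.88 and 3.38), *Pcdhgc3* had one in both *GFI1-36S* lists (8.58 without and 8.90 with curcumin) and *Ccl27a* in neither. At *Ppp2r3d*, *Mpnd* and *2900026A02Rik* the gene had another promoter peak without curcumin in both genotypes, and at *Slc2a5*, a fructose transporter gene, in *GFI1-36N* mice.

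Away from promoters, the nearest genes mostly had a promoter peak in every library. Of the 501 sites away from promoters, 304 (60.7%) had as nearest gene one with a promoter peak in all 6 libraries, against 69.3% of all regions away from promoters, and 64 (12.8%) had one without a promoter peak in any library, against 11.1%.

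The *GFI1-36S* libraries took no part in the choice and show how the same sites looked in the third genotype. A peak was listed without curcumin at 212 of the 583 sites (36.4%, 32.6% to 40.3%), against 52.0% of all merged regions, 42.1% (39.6% to 44.7%) of the regions lost in both genotypes, 38.0% of those gained in *GFI1-KD* alone and 22.4% (21.8% to 23.1%) of those gained in *GFI1-36N* alone. In the library labelled *GFI1-36S* curcumin 24 sites had a peak (4.12%, 2.78% to 6.05%), against 24.6% of all regions and 5.68% (4.58% to 7.02%) of those lost in both. Both *GFI1-36S* lists had a peak at 11 sites, the one without curcumin alone at 201, the one labelled curcumin alone at 13, and neither at 358 (61.4%).

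Thus the pattern seen in *GFI1-36N* and *GFI1-KD* mice, a peak with curcumin only, was present as labelled at 13 of the 225 sites with any *GFI1-36S* peak (5.78%, 3.41% to 9.63%), against 9.85% over all regions with a *GFI1-36S* peak. With the 2 treatments swapped, as the list names have them, it was present at 201 of 225 and the shares of 36.4% and 4.12% trade places. The swapped pattern was present at 21310 of 37165 regions with any *GFI1-36S* peak. It was present at 543 of 622 such regions lost in both genotypes and 1061 of 1217 gained in *GFI1-KD* alone, so it was not particular to the gained sites. The library labelled *GFI1-36S* curcumin has the fewest peaks and the marker pattern described above, and the part of these in the shares was not tested. The 13 sites were nearest to *Smoc1*, *Prdm16*, *Ikzf2*, *Ccr7*, *Hdhd5*, *Pabpc2*, *Slc7a1*, *Lrrc27*, *Pck1*, *Klhl25*, *Aif1l*, *Oaf* and *Tor1aip2*. Among them *Ccr7*, a lymphocyte homing receptor gene, had 3.98 in *GFI1-36N*, 4.15 for *GFI1-KD* and 3.74 in *GFI1-36S* with curcumin, in a library with a peak at 25 of 26 T-cell promoters. The site at *Aif1l* covered its TSS, with 4.99 in the library labelled *GFI1-36S* curcumin and 2.94 in *GFI1-36N*.

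**Figure D4:**
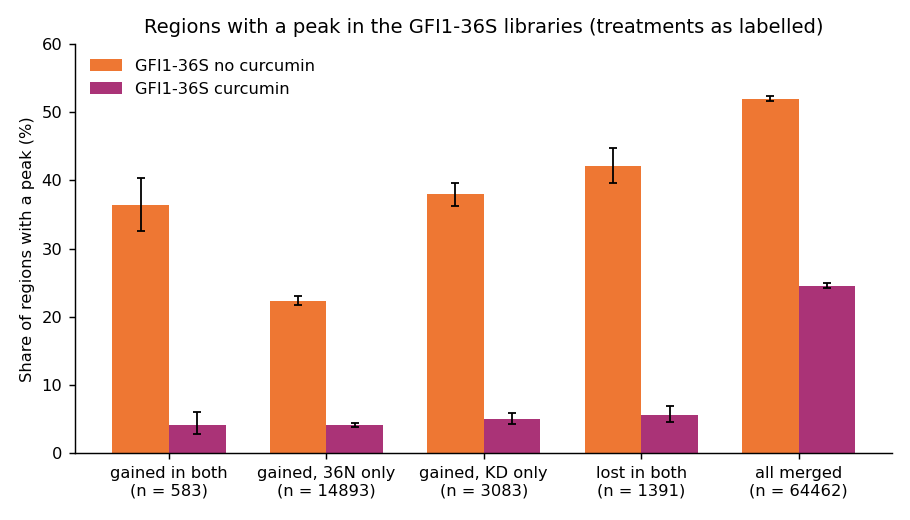
Share of regions (y, %) with a peak in the *GFI1-36S* libraries, treatments as labelled, for 5 sets of regions; error bars are Wilson 95% intervals and cover counting error only. At the gained sites 36.4% had a peak without and 4.12% with curcumin, and in every set the library labelled curcumin has the lower share.

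The nearest genes were read against 14 lists of lineage and pathway genes. Over all protein-coding genes, 514 of 21924 (2.34%) were nearest to a gained site. Of the stem and progenitor list it was 5 of 24, namely *Prdm16*, *Mllt3*, *Erg*, *Cd34* and *Gata2*, and of the endothelial and stromal list 5 of 23, namely *Runx2*, *Pecam1*, *Adipoq*, *Kdr* and *Cxcl12*. Counted by sites, these lists held 5 sites (0.858%, 0.367% to 1.99%) and 7 sites (1.20%, 0.583% to 2.46%), against 0.371% and 0.175% of all merged regions. For the first, the share of all regions lies inside the interval, and for the second below it. The B and plasma cell list held 4 of 23 genes (*Bach2*, *Prdm1*, *Cd79b* and *Blnk*), the NRF2 antioxidant list 3 of 18 (*Gstm1*, *Gclc* and *Prdx1*), the monocyte and macrophage list 3 of 27 (*Ly86*, *Klf4* and *Cx3cr1*), and the megakaryocyte, T-cell and eosinophil, basophil and mast cell lists 1 each (*Fli1*, *Ccr7* and *Mitf*). By sites, the B and plasma cell and the NRF2 lists each held 0.686% (0.267% to 1.75%), against 0.182% and 0.164% of all regions, both below the interval. All of these rest on 7 sites or fewer per list. Sites near the same gene are not independent, and *Runx2* alone accounts for 3 of the 7. Of the regions lost in both genotypes, the stem and progenitor, endothelial and stromal, and B and plasma cell lists each held 0.216%, and the NRF2 list 0.144%. A nearest gene names the position of a site and can be far away, as with *Klf4*, whose TSS is 291616 bp from its site.

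No gained site had as nearest gene any of 38 erythroid, 9 heme biosynthesis, 22 neutrophil, 34 interferon-stimulated or 12 NK cell genes, or any of 19 genes of histone acetyltransferases and GFI1 corepressors. A count of 0 of 583 allows a share of up to 0.515% (3 counts of 583; the upper Wilson bound is 0.655%), and over all regions these lists held 0.493%, 0.0636%, 0.363%, 0.161%, 0.0760% and 0.180%, so that a difference was not detectable at this number of sites. Among the regions lost in both genotypes, 20 (1.44%) were nearest to an erythroid and 17 (1.22%) to an interferon-stimulated gene, both above these limits.

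The progenitor genes were next described 1 by 1. *Mllt3*, a chromatin reader known to support stem cell self-renewal, had an intronic site (chr4:87892913-87893878) with a fold enrichment of 3.66 in *GFI1-36N*, 7.63 for *GFI1-KD* and 6.23 in *GFI1-36S* without curcumin. The site in *Erg*, an ETS factor of stem cells and a known AML oncogene, had 4.15, 4.32 and 3.55 in the same order and a *GFI1-36N* or *GFI1-KD* no-curcumin peak 520 bp away. The intronic site 4573 bp downstream of a *Cd34* TSS had 2.99 in *GFI1-36N* and 4.48 in the *GFI1-KD* library and no *GFI1-36S* peak. The site upstream of *Gata2* had 6.12 in *GFI1-36N* mice but a rank of only 4.8 in the *GFI1-KD* library, and a no-curcumin peak stood 140 bp away. *Prdm16* was the only one of the 5 genes whose site had a rank above 60 in both curcumin lists. *Fli1*, an ETS factor of megakaryocytes, had 4.67, 4.48 and 3.71 at a site 13605 bp upstream of its TSS.

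*Runx2*, the master regulator of osteoblasts that is also expressed in plasmacytoid dendritic cells and progenitors, was nearest to 3 sites. The first lay 135554 bp from the TSS, with a fold enrichment of 7.96 in *GFI1-36N* and 4.32 in the *GFI1-KD* library. The second had 3.63 and 3.16 and the third 7.10 and 3.06, the last with a *GFI1-36S* peak of 5.78 without curcumin. *Cxcl12*, the niche chemokine that retains stem cells, had a site 50232 bp from its TSS with 5.02 and 3.82 and no no-curcumin peak within 212439 bp. *Kdr* and *Pecam1*, both endothelial genes, had 3.98 and 3.82, and 3.98 and 4.15, in *GFI1-36N* and *GFI1-KD* mice. The *Kdr* site was intergenic and lay 151744 bp from the TSS, and the *Pecam1* site was intronic. The sites of *Adipoq* (3.46 and 4.65), an adipocyte gene, and of *Bach2* (3.12 and 4.15), *Prdm1* (3.63 and 3.49) and *Cd79b* (3.29 and 3.16), genes of B and plasma cells, had no *GFI1-36S* peak. The *Prdm1* site lay 104281 bp from the TSS, and the *Cd79b* site lay in an intron of *Scn4a*. *Ly86*, which encodes the MD-1 partner of a Toll-like receptor homologue, had 3.98, 3.99 and a *GFI1-36S* peak of 4.05 without curcumin. Apart from 2 of the *Runx2* sites and the *Cxcl12* site, these sites had a fold enrichment below 5 in both curcumin libraries.

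Some sites lay close together. In all 514 genes were nearest to at least 1 site, 56 to at least 2 and 11 to at least 3, and 135 sites lay within 100 kb of another. These counts were not computed for other regions, so they are not known to be particular to the gained sites. Neighbouring peaks that do not overlap count as separate sites, as at *Ccl27a* (chr4:41774013-41774225 and chr4:41774372-41774655). *Adk*, which encodes adenosine kinase, and *Serp2*, a stress-associated endoplasmic reticulum gene, had 4 sites each. At *Adk* 3 of the 4 lay side by side (chr14:21280295-21288407), with fold enrichments of 6.75, 3.56 and 5.71 in *GFI1-36N* and 5.11, 4.12 and 2.64 in the *GFI1-KD* library, at least 78.7 kb from any no-curcumin peak of these genotypes and without a *GFI1-36S* peak. The 4 sites near *Serp2* lay 53725 to 224071 bp upstream of it, with 6.06 and 4.44 at the strongest. *Baz2b*, *Fam129b*, *Kdm7a*, *Rad51b*, *S1pr3*, *Scml4*, *Zeb2* and *Zfp36l2* were each nearest to 3 sites, as was *Runx2*.

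Those loci differed in their surroundings. The 3 sites in *Fam129b* introns, with 3.63, 3.29 and 3.29 in *GFI1-36N* and 4.15, 3.82 and 3.66 in the *GFI1-KD* library, all had a no-curcumin peak within 0.631 kb. Near *Zfp36l2*, an mRNA decay factor of haematopoietic stem cells, all 3 had a peak in *GFI1-36S* without curcumin (3.55, 2.40 and 3.71). Of the 3 sites with *Scml4* as nearest start site, 2 neighbouring ones in an intron of *Sobp* (7.62 and 4.32 in *GFI1-KD*, 3.81 and 3.14 in *GFI1-36N* mice) stood at least 71.4 kb from any no-curcumin peak, and the third lay at a *Scml4* promoter. One of the *Zeb2* sites lay 1128719 bp from its TSS, so the nearest gene there is a name for the position only.

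Base composition and short sequence motifs were the last property that the selection did not use. Within 150 bp of the summit the gained sites had a median GC content of 47.8%, against 49.8% for all regions and 48.5% for those lost in both genotypes. Away from promoters it was 47.2% for the gained sites and 48.2% for all regions. Soft-masked repeats made up at least 50% of the window in 5.32% of the gained sites and in 5.32% of all regions.

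The letters of 16 motifs were searched on both strands of the same window. The letters were AGATAA for the GATA factors, TGTGGT for the RUNX factors, CCGGAA for the ETS family, GAGGAAGT for its member PU.1 and TGANTCA for AP-1. C/EBP was sought as TTGCNNAA, the repressor GFI1 as AAATCAC, CREB by the CRE letters TGACGTCA and NRF2 as TGACNNNGC. The letters of NF-Y were CCAAT, those of the core of CTCF were CAGNGGGC, those of the IRF factors were GAAANNGAA and those of HOX-PBX were TGATTNAT. MEIS was sought as TGACAG, the E-box of MYC as CACGTG and the E-box of TAL1 as CAGATG. Several can share bases, such as AP-1 with CRE, HOX-PBX with GFI1, and MEIS with NRF2. For 12 of them the share of all regions lay within the Wilson 95% interval of the gained sites. The GFI1 letters were found at 34 gained sites (5.83%, 4.20% to 8.04%) and 3.27% of all regions, the IRF letters at 14.9% (12.3% to 18%) and 10.7%, the C/EBP letters at 14.4% (11.8% to 17.5%) and 11%, and the CTCF core at 4.80% (3.34% to 6.85%) and 7.20%. Away from promoters the GFI1 letters were found at 5.99% (4.23% to 8.42%) of gained sites and 3.77% of all regions, the IRF letters at 16.0% (13.0% to 19.4%) and 12.2%, and the PU.1 letters at 1.80% (0.948% to 3.38%) and 3.52%, whereas C/EBP and CTCF came within the interval.

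The motif shares depended on the window and on base composition. Within 75 bp of the summit the GFI1 letters were found at 13 sites (2.23%, 1.31% to 3.78%) against 1.49% of all regions, and only the IRF letters stayed outside the interval, at 8.06% (6.12% to 10.6%) against 4.90%. Among regions away from promoters with a GC content of 40% to 50%, a comparison chosen after seeing the data, the GFI1 letters were found at 17 of 246 gained sites (6.91%, 4.36% to 10.8%) against 4.24% of 23563 regions, and the IRF letters at 17.5% (13.2% to 22.7%) against 14.1%, within the interval. The CTCF core was found there at 2 gained sites (0.813%, 0.223% to 2.92%) against 4.41% of regions, outside the interval. A match is not a binding site, and GFI1 binding was not measured here.

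For 5 of the stronger sites with the GFI1 letters, these letters and the 20 bases on each side of them are shown, since GFI1 is the factor altered in these mice. The capitals are AAATCAC or its reverse complement GTGATTT, printed on the plus strand of mm10, and the fold enrichments are given for *GFI1-36N* and *GFI1-KD* curcumin mice in that order.
Ikzf2 site, chr1:69668273-69668319: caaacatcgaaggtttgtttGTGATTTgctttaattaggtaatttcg
Adk site, chr14:21159409-21159455: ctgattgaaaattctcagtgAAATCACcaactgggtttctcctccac
Mical3 site, chr6:121014122-121014168: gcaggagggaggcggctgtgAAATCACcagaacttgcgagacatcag
Erg site, chr16:95447678-95447724: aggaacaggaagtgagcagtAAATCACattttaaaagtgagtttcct
Serp2 site, chr14:76778670-76778716: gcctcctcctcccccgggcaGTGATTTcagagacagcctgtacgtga

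These sites had 5.19 and 20.7 (*Ikzf2*), 6.27 and 4.89 (*Adk*), 3.81 and 4.84 (*Mical3*), 4.15 and 4.32 (*Erg*) and 6.06 and 4.44 (*Serp2*). At *Ikzf2* the letters lie under the *GFI1-KD* peak only. The 5.19 there belongs to a *GFI1-36N* peak elsewhere in the merged region (chr1:69662889-69663286). The letters stood between 23 and 124 bp from the summit.

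**Figure D5:**
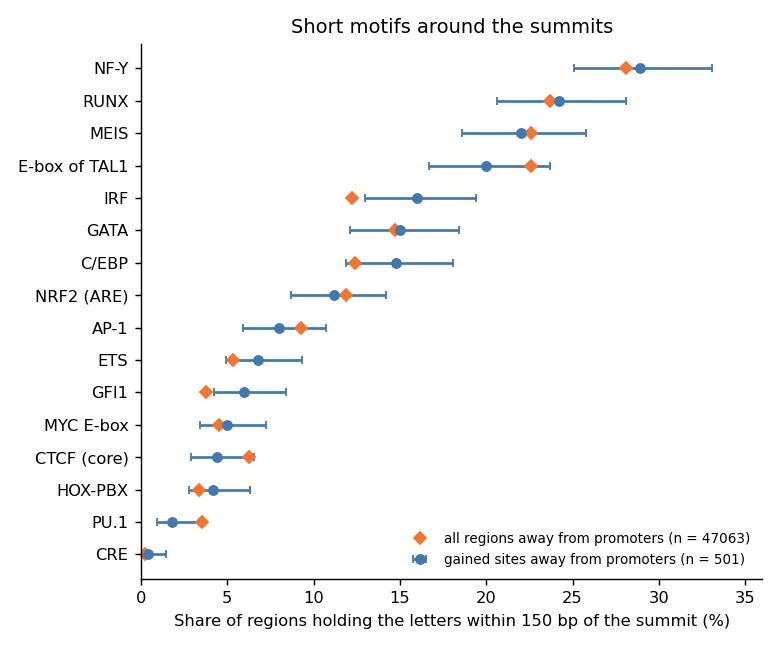
Share of regions away from promoters that hold the letters of each motif within 150 bp of the summit (x, %), for 501 gained sites (circles with Wilson 95% intervals, counting error only) and 47063 regions in all (diamonds). The diamonds of GFI1 and IRF lie below the interval of the gained sites, at 3.77% and 12.2%, that of PU.1 above it at 3.52%, and the other 13 within it.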

How the data were processed

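H3K9ac was profiled by ChIP-seq in whole BM of *NUP98-HOXD13* transgenic mice of 3 *GFI1* genotypes, with 1 library per group and 6 in all; an input and an IgG sample were not used here. The authors trimmed the reads (Trim Galore), aligned them to mm10 (BWA-MEM), ran MACS2 on every library and left out ENCODE black list regions. Control, thresholds and versions are not given in the sources used here. Each deposited peak carries a fold enrichment (a ratio to the local background), a −log10 p and a −log10 q from the authors' peak caller. An integer score, also deposited by the authors, was not used. The values are not normalized between libraries, come without read totals and were ranked within a list.

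Peaks that overlapped by at least 1 bp were merged with Python 3.11.15, numpy 2.4.6 and pandas 2.3.3. Start sites came from GENCODE release M21 and sequence from RefSeq's GRCm38, the same assembly. Shares carry Wilson 95% intervals. The merging and the selection rule were tested on the deposited lists with chosen no-curcumin peaks removed, and on a small made-up set of peaks. The other steps were not tested in this way. The members, gene lists and motifs were chosen with earlier results of these data known. Genes were named by rule (the 12 strongest sites, the strongest promoter sites, up to 15 list genes, and genes with 3 or more sites); others were named after their values were seen, to spell out small counts. Alternatives were stronger peaks alone (by q, or the 20354 top peaks per list), other merging, distances, windows and start sites, and the *GFI1-36S* treatments exchanged.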

Additional observations from a re-analysis of the deposited data

Results flagged for a closer look

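At 201 of the gained sites the *GFI1-36S* pair ran opposite, as labelled, to the *GFI1-36N* and *GFI1-KD* pairs, with a peak in the library without curcumin and none in the library labelled curcumin. The opposite was listed at 13 sites. A peak in the *GFI1-36S* library without curcumin alone was also listed at 21310 of all 64462 merged regions. It was listed at 543 of the 1391 regions lost in both genotypes, so this pattern is not particular to the gained sites. The sites were chosen for their direction in *GFI1-36N* and *GFI1-KD* mice, each group holds 1 library, and the difference was not tested. With these 2 treatments swapped, as the list names have them, the 201 sites run the same way in all 3 genotypes. The share of *GFI1-36S* regions with a peak in the curcumin library alone was 5.78% at the gained sites and 5.79% at the regions lost in both genotypes.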

How the results depend on the processing

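The number of sites was 583, and 335 with equal numbers of top peaks and 379 with no no-curcumin peak within 1 kb; it lay between 413 and 584 under the other 5 alternatives. The promoter share of 14.1% became 23.3% with a window of 3 kb, 19.7% with genes of all biotypes and 19.7% with equal numbers of top peaks. With the *GFI1-36S* treatments exchanged, the share with a *GFI1-36S* curcumin peak became 36.4% and that without curcumin 4.12%. The former was 11.9% with equal numbers of top peaks and the latter 30.7% with a −log10 q of at least 5. The median *GFI1-36N* rank was 33.7 by −log10 p in place of 34.3, the median TSS distance 6975 bp with all biotypes, and the median GC content 49.0% within 75 bp. Of the 4 motifs outside the interval, 1 was left within 75 bp and 2 in the GC range of 40% to 50% away from promoters, the latter an alternative chosen after seeing the data, as was the restriction to regions away from promoters, which gave 3 (GFI1 and IRF of those 4, and PU.1, which was within it over all regions). In 12 alternatives the value moved by less than its interval or, for a count, by less than 1.5 times. The cause was not tested. No paired analysis was possible because each group holds 1 library and no test was run, and for the same reason no library could be left out. Since the median site rests on 21 or 22 fragments, a site without a listed peak may lie below the threshold of its list.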

Other observations

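At some gained sites the fold enrichment was far higher in the *GFI1-36N* than in the *GFI1-KD* curcumin list; the following were picked after their values were seen, and the lists are not normalized to each other. A site in an exon of *Rasal2*, which encodes a GTPase-activating protein for RAS, had a fold enrichment of 14.7 in *GFI1-36N* and 5.64 in the *GFI1-KD* library. One in an intron of *Acss2*, the enzyme that makes acetyl-CoA from acetate, had 11.4 and 5.07. A *GFI1-36N* or *GFI1-KD* no-curcumin peak stood only 398 bp from the *Acss2* site, and soft-masked repeats made up 61.5% of its summit window. One of 2 sites in *Tcf4*, an E-protein gene, had 10.6 and 3.66. None of these 3 had a *GFI1-36S* peak in the library labelled as without curcumin.

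The *Hoxc* cluster, also picked after its values were seen, held 4 gained sites. At *Hoxc4* they had 6.92 and 5.85 at the stronger and 3.28 and 3.76 at the other, in the same order, at *Hoxc8* 6.23 and 3.98 and at *Hoxc9* 4.67 and 3.79. A no-curcumin peak stood within 0.946 kb of each, and none had a *GFI1-36S* peak. Other homeobox genes were nearest to gained sites as well, among them *Gbx2* with 2, *Hopx* and *Pbx3*. The share of all merged regions at the *Hoxc* cluster or at homeobox genes was not computed. Such sites are therefore not known to be particular to the gained set. By chromosome, the gained sites per 100 merged regions ran from 0.610 on chromosome 8 to 1.27 on chromosome 6, and no site lay on the Y chromosome, where 3 regions were listed in all.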
